A study of Mus musculus with 6 samples.

Results

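The genes described here are 10 genes of outer segment phagocytosis and engulfment, Mertk, Tyro3, Axl, Gas6, Pros1, Mfge8, Itgav, Itgb5, Cd36 and Cd47, chosen by name from the 19401 genes listed in the retinal RNAseq of 5XFAD mice. Each of the 10 was listed in all 6 libraries and had enough counts to be tested. The study asked how a low dose of efavirenz (EFV), an anti-HIV drug that activates the cholesterol hydroxylase CYP46A1, affects the retina in this model of Alzheimer's disease. The RNAseq compared 3 libraries of control mice with 3 libraries of EFV-treated mice, all 9 months old.

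All mice, control and treated, were hemizygous 5XFAD mice on the B6SJL background, which carry transgenes for mutant human amyloid precursor protein and presenilin 1 driven by the neuronal Thy1 promoter. EFV was given in the drinking water from 3 to 9 months of age at a dose that the labels state as 0.08 mg/kg of body weight; the methods of the study state a different daily dose. Control mice received the vehicle. Each library was a pool of tissue from 5 to 6 mice. The labels name the tissue as retina, and the methods describe male mice and retina plus retinal pigment epithelium (RPE). The spread between libraries is therefore a spread between pools.

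The RPE is the layer of pigmented cells behind the photoreceptors, and each of its cells ingests the tips that rod and cone outer segments shed every day. The shed tips expose phosphatidylserine. The bridging protein MFG-E8 links this lipid to the integrin made of the Itgav and Itgb5 subunits, which binds the tips, and GAS6 and protein S link it to the receptor tyrosine kinase MERTK, which triggers ingestion. MERTK is a member of the TAM family with TYRO3 and AXL, its loss causes photoreceptor degeneration, and microglia, Müller cells and other phagocytes use the same receptors. CD36 is a scavenger receptor that takes part in internalization, and CD47 on the surface of a cell restrains its engulfment through SIRPA on the phagocyte.

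The totals of the 6 libraries lay between 23455167 and 24590278 counts, and 15537 genes were tested. The summed markers of rods, cones, Müller cells, microglia, endothelium and RPE were above 0 in every library. Those of lens were too, so a sum above 0 does not by itself show which tissue the material held. Rod markers were by far the highest, with a summed FPKM (fragments per kilobase of transcript scaled to the mapped fragments of the library, a level per length) of 26697 to 28668, and the 14 RPE markers summed to 48.2 to 84.1. Control library 3 stood apart most, with a lens marker sum of 836.6 FPKM against 8.97 to 34.9 in the other 5 libraries. EFV library 3 had a summed FPKM of Y-linked genes of 25.2, against 51.9 to 69.8 in the other 5 libraries. Xist was not found by its symbol, so whether this pool held only males, as the methods describe, could not be checked. The range of each gene's fold change with 1 library left out is given beside its value.

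The 10 genes spanned a 176.5-fold range of mean FPKM, from 0.983 for Cd36 to 173.6 for Mfge8. The median of all genes tested was 7.66. In descending order the genes were Mfge8, Gas6, Cd47, Itgb5, Itgav, Tyro3, Pros1, Axl, Mertk and Cd36. The bridging ligand genes Mfge8 and Gas6 stood at the top, and with Cd47 and Itgb5 they made up the 4 genes at a mean of 10 FPKM or more. The TAM receptors, the ligand gene Pros1 and Cd36 were the 5 genes under 5 FPKM. Between neighbours in this order the library ranges overlapped for Cd47 and Itgb5 and for Tyro3 and Pros1, and not for the other pairs. Since these are bulk samples, fewer cells of a type and less RNA per cell cannot be told apart in any of the levels.

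**Figure D1:**
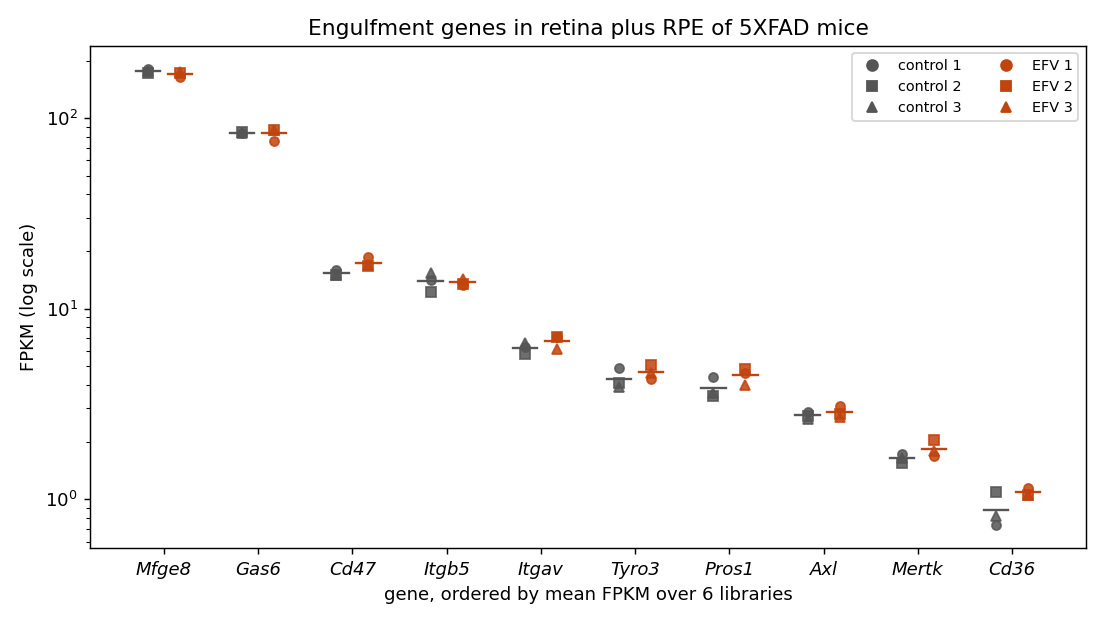
FPKM (log axis) of the 10 engulfment genes, ordered by mean level, with 1 point per library, control in grey and EFV-treated in orange, and a short line at each group mean. Mfge8 is highest at a mean of 173.6 and Cd36 lowest at 0.983, and the differences between the groups are small beside those between the genes.

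Of the 10 genes, Cd47 was 11.8% higher in EFV-treated than in control mice before adjustment for the number of genes tested, and the other 9 did not pass the limits used. After adjustment none passed: the adjusted p was 0.999 for each in edgeR's quasi-likelihood test with Benjamini-Hochberg (BH) adjustment across the series, in which no gene (0%) reached an adjusted p of 0.05, the smallest was 0.323 and 472 genes had an unadjusted p of up to 0.05. The limits of the paper ask for a p of up to 0.05 before adjustment, here that of edgeR, and for 1 group to lie at least 7% above the other. Cd47 alone of the 10 passed them, beside 3.01% of all genes tested. The groups did not overlap, on counts scaled by the TMM method of edgeR to library size, for 2 of the 10, Cd47 and Mfge8, beside 8.14% of all genes tested. DESeq2 gave an adjusted p of 0.05 or less to 11 genes of the series and to 0 of the 10, and by its unadjusted p Cd47 passed the limits, again 1 of the 10, beside 1.73% of all genes tested. Without EFV library 3 the limits were passed by 3 of the 10 (beside 3.64% of all genes tested) and without control library 3 by 1 (beside 3.41%). By sign alone 7 log2 fold changes were above 0 and 3 were below it, with 4 smaller than their own standard error. Their median was 0.09 on the log2 scale, where the median of all genes tested was 0.0012 and the quartiles were -0.06 and 0.06.

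**Figure D2:**
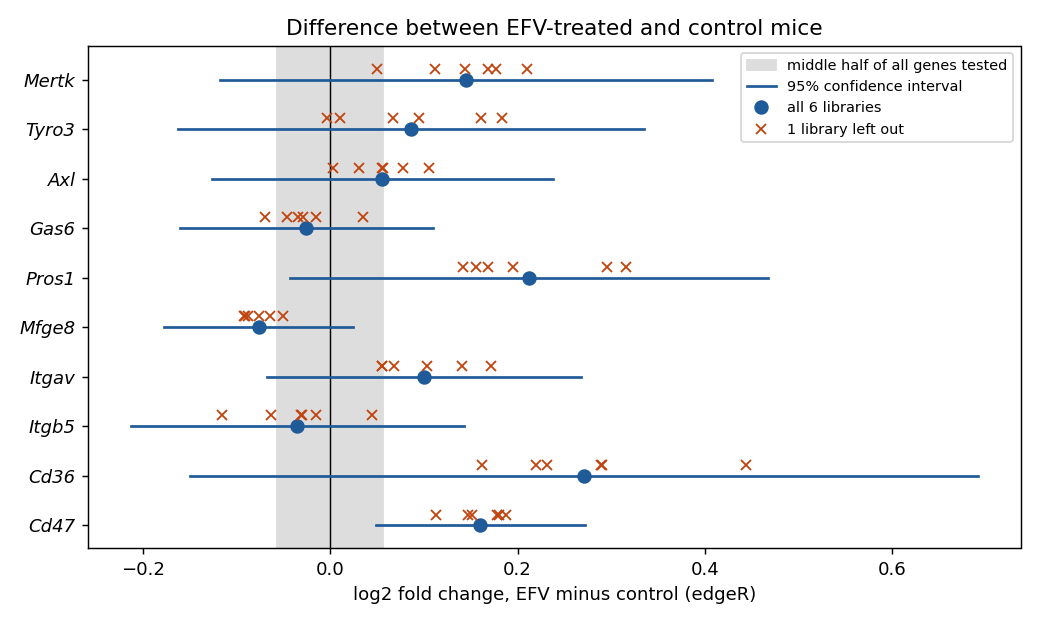
Log2 fold change (EFV-treated over control, edgeR) of each of the 10 genes, with its 95% confidence interval as a line, the value with each library left out in turn as a cross, and the grey band from the lower to the upper quartile of all genes tested. The interval of Cd47 (0.05 to 0.27) is the only 1 of the 10 that does not include 0.

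The promoters of the 10 genes were read from RefSeq (GRCm38.p6), as the 250 bases before a listed start, with 11 entries for the 10 genes, and searched on both strands. The GC box GGGCGG, the motif of SP transcription factors, was in a promoter of 9 of the 10 (all but Itgav), beside 32.7% of 32851 promoters. These 32851 were neither limited to genes tested here nor matched for GC content, so the 2 shares are not a like comparison. The E-box, the site of many helix-loop-helix factors and searched as CACGTG, was in 0 of the 10 genes and in 6.02% of all promoters. A TATA box, which was searched as TATAAA, was also in 0 of the 10 genes and in 12.4% of all promoters. Cd36 alone of the 10 held a CCAAT box, which 33.8% of all promoters hold, and the nuclear receptor motif, which was searched with the letters AGGTCA and which 14% of all promoters hold. The 250-base windows of Mertk and Cd47 had a GC content of 63.6% and 73.2%, where the median of all promoters was 52.4%, and a match is a description of the letters only. The 2 windows are shown because Mertk is the receptor that defines this pathway and Cd47 is the gene past the limits of the paper, with each GC box on either strand in capitals. They lie at chr2:128698665-128698914 and chr16:49855404-49855632, both on the plus strand, and the sequence of Cd47 is shown for 229 of its 250 bases, up to an annotated exon of Cd47. The start of Cd47 that RefSeq lists here lies inside the outer bounds of the gene given below, which reach further upstream.
Mertk: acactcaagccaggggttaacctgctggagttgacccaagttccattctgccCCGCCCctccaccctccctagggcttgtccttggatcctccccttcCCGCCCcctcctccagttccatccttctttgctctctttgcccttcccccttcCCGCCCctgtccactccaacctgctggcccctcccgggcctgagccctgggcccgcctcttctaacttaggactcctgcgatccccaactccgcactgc
Cd47: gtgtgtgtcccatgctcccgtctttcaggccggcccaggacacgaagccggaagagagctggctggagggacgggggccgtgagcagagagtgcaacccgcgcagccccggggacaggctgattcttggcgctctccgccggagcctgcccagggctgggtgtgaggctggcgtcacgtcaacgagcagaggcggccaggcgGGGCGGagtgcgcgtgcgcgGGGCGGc

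Mertk (Entrez 17289, chromosome 2 from 128698915 to 128803162, plus strand, mm10) encodes the TAM receptor that triggers ingestion. Its FPKM was 1.74, 1.56 and 1.65 in control libraries 1, 2 and 3 and 1.68, 2.05 and 1.79 in EFV libraries 1, 2 and 3. EFV library 2 was the highest of the 6, and EFV library 1 lay inside the control range. The means were 1.65 ± 0.09 in control and 1.84 ± 0.19 in EFV-treated mice (SD, n = 3 each), with 161 to 220 counts per library. On the log2 scale the fold change was 0.14 (standard error 0.12, 95% confidence interval -0.12 to 0.41). As a percentage the interval runs from a fall of 7.84% to a rise of 32.6%. With 1 library left out the log2 value lay between 0.05 (without EFV library 2) and 0.21 (without EFV library 1).

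Tyro3 (Entrez 22174, chromosome 2 from 119797740 to 119818104, plus strand) was the most abundant TAM receptor. Its FPKM was 4.91, 4.10 and 3.88 in control and 4.26, 5.07 and 4.62 in EFV-treated mice. The groups overlapped, since control library 1 was above EFV libraries 1 and 3. EdgeR gave a log2 fold change of 0.09 (standard error 0.11, interval -0.16 to 0.33), and with 1 library left out it lay between -0.0034 (without EFV library 2) and 0.18 (without control library 1). Without control library 3 it was 0.01. Axl (Entrez 26362, chromosome 7 from 25756500 to 25788924, minus strand), the TAM receptor best known from inflamed tissue, had an FPKM of 2.89, 2.73 and 2.65 in control and 3.09, 2.82 and 2.71 in EFV-treated mice. Its groups overlapped too, and only EFV library 1 lay above the control range. The log2 fold change of Axl was 0.06 (standard error 0.08, interval -0.13 to 0.24), with 0.0028 without EFV library 1, 0.03 without control library 3 and 0.11 without EFV library 3.

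The makeup of the TAM receptors was measured as the share of each in their summed FPKM. Mertk took 19.0% ± 1.03 in control and 19.6% ± 1.01 in EFV-treated mice (SD, n = 3 each), a difference of 0.62 percentage points (exact permutation test, two-sided p = 0.50). Tyro3 took 49.3% and 49.6%, and Axl 31.7% and 30.8%. The summed FPKM of the 3 receptors was 8.70 ± 0.73 in control and 9.36 ± 0.50 in EFV-treated mice (SD, n = 3 each), and the exact permutation test gave a two-sided p of 0.30. With 3 libraries against 3 this test cannot go below 0.10.

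Gas6 (Entrez 14456, chromosome 8 from 13465374 to 13494535, minus strand) encodes a ligand of all TAM receptors. Its FPKM was 83.33, 84.25 and 83.56 in control and 76.22, 87.15 and 86.22 in EFV-treated mice. The control libraries lay within a narrow range, and the EFV libraries lay on both sides of it, with EFV library 1 the lowest. The means were 83.7 ± 0.48 and 83.2 ± 6.06 (SD, n = 3 each). Its log2 fold change was -0.03 (standard error 0.06, interval -0.16 to 0.11), and it ran from -0.07 without EFV library 2 to 0.04 without EFV library 1, so its sign rested on the latter. Exons of Gas6 share 34 bases with Tmem255b on the opposite strand, and as the strandedness of the counting is not given in the sources used here, reads from these bases cannot be told apart.

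Pros1 (Entrez 19128, chromosome 16 from 62854307 to 62929346, plus strand) encodes protein S, the other ligand, which also acts as an anticoagulant. Its FPKM was 4.39, 3.49 and 3.60 in control and 4.61, 4.85 and 3.99 in EFV-treated mice. EFV libraries 1 and 2 were above every control library, and EFV library 3 was below control library 1. On the log2 scale the fold change was 0.21 (standard error 0.11, interval -0.04 to 0.47). It was lowest, at 0.14, without EFV library 2. Without control library 1 it was 0.32, and without EFV library 3 it was 0.30, so with either of these left out Pros1 passed the limits of the paper, with an adjusted p of 0.998 or more in edgeR with BH.

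Gas6 made up nearly all of the ligand message. Its share of the summed FPKM of Gas6 and Pros1 was 95.6% ± 0.55 in control and 94.9% ± 0.65 in EFV-treated mice (SD, n = 3 each), with a two-sided p of 0.20 in the exact permutation test. Summed ligand FPKM was 10.1 times summed receptor FPKM in control and 9.37 times in EFV-treated mice, and the exact permutation test gave a two-sided p of 0.30.

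Mfge8 (Entrez 17304, chromosome 7 from 79133768 to 79149060, minus strand), which encodes the bridge to the integrin, was the most abundant of the 10 genes. Its FPKM was 181.64, 172.09 and 177.65 in control and 164.35, 171.74 and 174.12 in EFV-treated mice. On this scale the groups overlapped, since EFV library 3 was above control library 2. On TMM-scaled counts the EFV libraries (322.4, 341.0 and 339.6 CPM) were all below the control libraries (358.5, 346.1 and 352.8 CPM), but with scaling by total counts the groups overlapped again. EdgeR gave a log2 fold change of -0.08 (standard error 0.04, interval -0.18 to 0.02), under the fold limit of the paper, and from -0.09 to -0.05 (without EFV library 1) with 1 library left out. With 7966 to 8841 counts per library Mfge8 had the smallest standard error of the 10 genes.

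Itgav (Entrez 16410, chromosome 2 from 83722303 to 83806917, plus strand) encodes the alpha subunit of the integrin. Its FPKM was 6.30, 5.78 and 6.59 in control and 7.09, 7.11 and 6.12 in EFV-treated mice. EFV libraries 1 and 2 were above the control range and EFV library 3 was inside it. Its log2 fold change was 0.10 (standard error 0.07, interval -0.07 to 0.27). It was 0.06 without control library 2 and also without EFV library 2. Without EFV library 3 it was 0.17 and passed the limits of the paper, with an adjusted p of 0.998 in edgeR with BH. Exons of Itgav share 634 bases with the antisense gene Gm13684, and without strand the reads of the pair cannot be told apart.

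Itgb5 (Entrez 16419, chromosome 16 from 33829665 to 33949338, plus strand) encodes the beta subunit. Its FPKM was 14.12, 12.22 and 15.47 in control and 13.40, 13.48 and 14.39 in EFV-treated mice. The control libraries held both the highest and the lowest value of the 6. On the log2 scale the fold change was -0.03 (standard error 0.08, interval -0.21 to 0.14), and it ran from -0.12 without control library 2 to 0.04 without control library 3. The ratio of Itgav to Itgb5 FPKM was 0.448 ± 0.0236 in control and 0.494 ± 0.0595 in EFV-treated mice (SD, n = 3 each), with a two-sided p of 0.40 in the exact permutation test on the log2 ratio. EFV libraries 1 and 2, at 0.529 and 0.527, were above the control libraries, and EFV library 3, at 0.425, was the lowest of the 6.

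Cd36 (Entrez 12491, chromosome 5 from 17781690 to 17888959, minus strand), the scavenger receptor, was the least abundant of the 10 genes. Its FPKM was 0.73, 1.09 and 0.82 in control and 1.15, 1.05 and 1.06 in EFV-treated mice. The EFV libraries lay close together, and control library 2 lay among them while the other control libraries were lower. The means were 0.88 ± 0.19 and 1.09 ± 0.06 (SD, n = 3 each). EdgeR gave a log2 fold change of 0.27 (standard error 0.19, interval -0.15 to 0.69) on 63 to 95 counts per library, the least precise of the 10 genes. Without control library 1 it was 0.16, and without control library 2 it was 0.44 and passed the limits of the paper.

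Cd47 (Entrez 16423, chromosome 16 from 49851328 to 49912503, plus strand) encodes the surface protein that restrains engulfment, and it was higher in EFV-treated mice in 3 of 3 libraries. Its FPKM was 15.92, 15.06 and 14.97 in control and 18.76, 16.76 and 16.90 in EFV-treated mice. The lowest EFV library was above the highest control library, and EFV library 1 was the highest of the 6. The means were 15.3 ± 0.52 in control and 17.5 ± 1.12 in EFV-treated mice (SD, n = 3 each), on 1781 to 2291 counts per library. Its log2 fold change was 0.16 (standard error 0.05, interval 0.05 to 0.27), which is 11.8% higher with an interval of 3.44% to 20.7%. The edgeR p was 0.00998 before and 0.999 after BH adjustment, and the exact permutation test on the FPKM gave a two-sided p of 0.10, the smallest that this design allows.

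Cd47 passed the limits of the paper with each library left out in turn, with log2 fold changes from 0.11 (without EFV library 1) to 0.19. It is in the list of changed genes of the study, which was chosen on these libraries, so its direction is not independent evidence. The FPKM of its receptor Sirpa was 42.46, 42.96 and 41.89 in control and 47.22, 43.89 and 43.62 in EFV-treated mice, with EFV library 1 again the highest. The log2 fold change of Sirpa was 0.06 (standard error 0.05, interval -0.05 to 0.16). The ratio of Cd47 to Sirpa FPKM was 0.361 ± 0.0126 in control and 0.389 ± 0.00781 in EFV-treated mice (SD, n = 3 each), and its groups did not overlap (exact permutation test, two-sided p = 0.10). This ratio is built on Cd47, whose own groups did not overlap, so it is not a separate result.

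RPE markers were higher on average in EFV-treated mice, and their summed FPKM overlapped between the groups. On TMM-scaled counts the groups did not overlap for 3 of the 14 markers, beside 8.14% of all genes tested. Of the 14 RPE markers 12 had a log2 fold change above 0, with a median of 0.43. The limits of the paper were passed upward by 4 (Rpe65, Stra6, Kcnj13 and Lrat), beside 1.47% of all genes tested, and edgeR with BH called 0 at an adjusted p of 0.05. All 4 are in the list of changed genes that the study chose on these libraries, so they are not independent evidence. Their summed FPKM was 75.46, 48.24 and 75.04 in control and 72.37, 84.10 and 82.70 in EFV-treated mice, so control library 2 was the lowest of the 6 and EFV library 1 lay below the other control libraries. Among the 10 engulfment genes, Mertk, Pros1, Itgav and Itgb5 also had their lowest FPKM in control library 2, whereas Cd36 and Gas6 had their highest control values there. None of the 14 RPE markers was at 0.

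With the mean log2 abundance of the RPE markers as a covariate, 3 of the 10 genes passed the limits of the paper, where the same model called 2.95% of all genes tested. These were Cd47 with a log2 fold change of 0.19, Itgb5 with -0.19 and Cd36 with 0.57. Itgb5, the integrin subunit, had -0.03 and Cd36 had 0.27 without the covariate. Mertk had a log2 fold change of 0.05 with the covariate and 0.14 without it. No adjusted p was 0.05 or less in this model. The markers behind the covariate were themselves higher on average in EFV-treated mice, and control library 2 had their lowest summed FPKM. With 6 libraries the covariate and the group therefore cannot be fully told apart, and the part of RPE content in the results was not tested further.

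**Figure D3:**
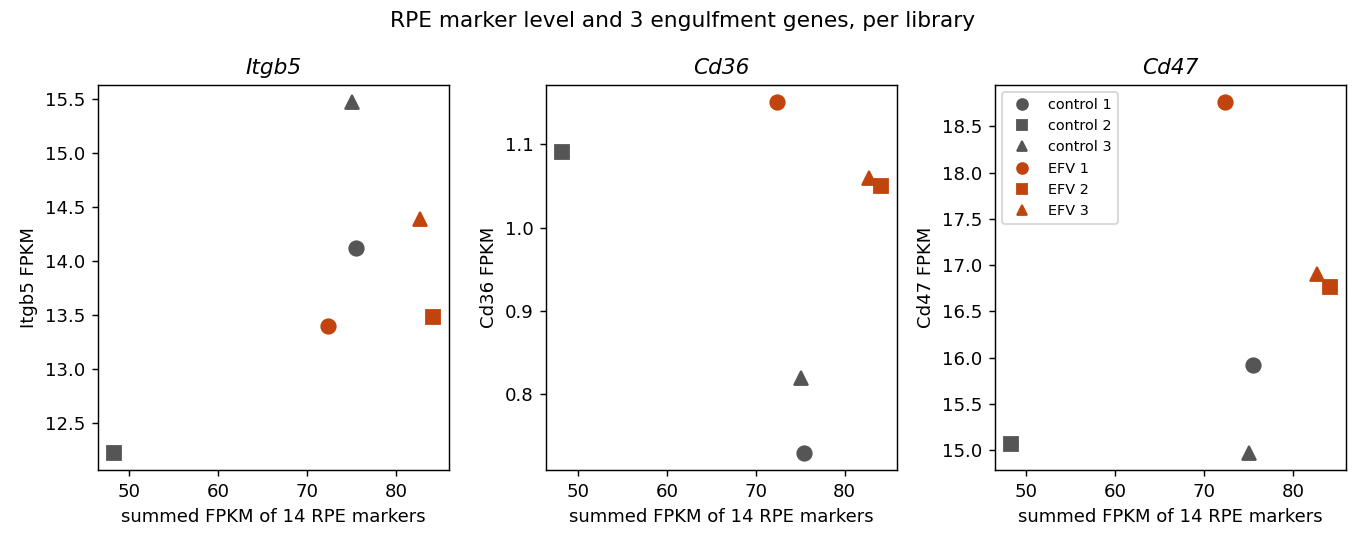
FPKM of Itgb5, Cd36 and Cd47 (vertical axes, which do not start at 0) against the summed FPKM of 14 RPE markers (horizontal axes), with 1 point per library, control in grey and EFV-treated in orange. Control library 2 stands apart at an RPE sum of 48.2, with the lowest Itgb5 (12.22), the highest control Cd36 (1.09) and a Cd47 of 15.06 beside the other control libraries.

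Marker sums of microglia, Müller cells, endothelium and rods overlapped between the groups too. The summed FPKM of the 11 microglia markers was 40.3 to 43.4 in control and 39.5 to 43.4 in EFV-treated mice, with 5 of 10 tested markers above and 5 below 0 on the log2 scale. On TMM-scaled counts the groups did not overlap for 3 of these 10 tested markers, beside 8.14% of all genes tested. Müller cell markers summed to 2153 to 2335 in control and 2185 to 2229 in EFV-treated mice, and endothelial markers to 66.7 to 73.2 and 66.9 to 71.4. Rod markers, whose cells shed the outer segments, summed to 27722 to 28668 in control and 26697 to 28354 in EFV-treated mice. By sign, 2 Müller cell markers were above and 8 below 0, with 3 and 8 for endothelium and 4 and 8 for rods. Of all genes tested 50.5% were above 0. The groups overlapped for every marker of these 3 lists. With the microglia markers as a covariate the log2 fold change of Cd47 was 0.15, and it was the 1 gene of the 10 past the limits, beside 2.79% of all genes tested.

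The rest of the engulfment pathway was described with 69 further genes, of which 67 were tested and Timd4 and Msr1, both phagocyte receptors, had too few counts. Of the 67, 32 had a log2 fold change above 0 and 35 below it, with a median of -0.002, and edgeR with BH called 0 of them at an adjusted p of 0.05. A single gene, Thbs1, passed the limits of the paper (1.49%, beside 3.01% of all genes tested). It was also the 1 gene of the 67 at an unadjusted edgeR p of 0.05 or less. The groups did not overlap for 4 of the 67 (5.97%, beside 8.14% of all genes tested): Thbs1, the complement gene C1qc, the focal adhesion kinase gene Ptk2 and the sheddase gene Adam10, the last 3 of which were picked out after their values were seen.

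Thbs1 encodes thrombospondin 1, a bridging ligand that binds CD36, CD47 and integrins. Its FPKM was 0.69, 0.51 and 0.72 in control and 0.91, 0.99 and 0.77 in EFV-treated mice, all EFV libraries being above all control libraries. On the log2 scale the fold change was 0.46 (standard error 0.18, interval 0.06 to 0.86) on 70 to 140 counts per library. Thbs1 did not pass the limits of the paper without control library 2, without EFV library 1 or without EFV library 2. With the RPE marker covariate or with the replicate number as a block it did not pass either. It too is in the list of changed genes that the study chose on these libraries.

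By role, 10 of the 12 other ligands and bridges had log2 fold changes below 0, with a median of -0.06. Of all genes tested 50.5% were above 0. Tub (-0.0034) and Lgals3 (-0.002) of this list were very close to 0. The most abundant were Tulp1, which encodes a photoreceptor protein that can act as a phagocytosis ligand, with a mean of 604.0 FPKM and a difference of -0.08 on the log2 scale (standard error 0.05), and Calr, the calreticulin gene, with 186.7 FPKM and -0.12 (standard error 0.07). Neither passed the limits. Of the 16 other engulfment receptors tested, 8 were above and 8 below 0 (median 0.02), led in level by Scarb1, a receptor of lipoproteins and phosphatidylserine, with 64.1 FPKM and Adgrb1, a phosphatidylserine receptor, with 41.7 FPKM. For the 19 genes of uptake signalling the numbers were 11 and 8 (median 0.01), with Rac1, the GTPase that shapes the phagocytic cup, at 68.2 FPKM and Elmo2, a part of its activator, at 24.3 FPKM.

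The 6 genes of CD47 partners were split 3 and 3 (median 0.02), with Sirpa at 43.7 FPKM and the phosphatase gene Ptpn11 at 21.4 FPKM; Thbs1 belongs to this list as well. For the 11 genes of phosphatidylserine exposure the numbers were 8 above and 3 below 0 (median 0.02). The most abundant were the flippase subunit gene Tmem30a with 61.1 FPKM and the flippase gene Atp11b with 52.9 FPKM. For the 4 genes of receptor shedding, which cut receptors such as MERTK from the surface or restrain the cutting, they were 1 and 3 (median -0.01), with the metalloproteinase gene Adam9 at 31.3 FPKM and the inhibitor gene Timp3 at 17.4 FPKM.

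Myo7a, which encodes a myosin that moves phagosomes and melanosomes in RPE cells, is named after its values were seen. Its FPKM was 1.87, 2.06 and 1.38 in control and 1.39, 1.51 and 1.38 in EFV-treated mice. Control libraries 1 and 2 were above the other 4 libraries, and control library 3 lay at the EFV level. EdgeR gave a log2 fold change of -0.33 (standard error 0.15, interval -0.66 to 0.0014), and without control library 3 it was -0.48 and passed the limits of the paper. Myo7a is also in the list of changed genes of the study.

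**Figure D4:**
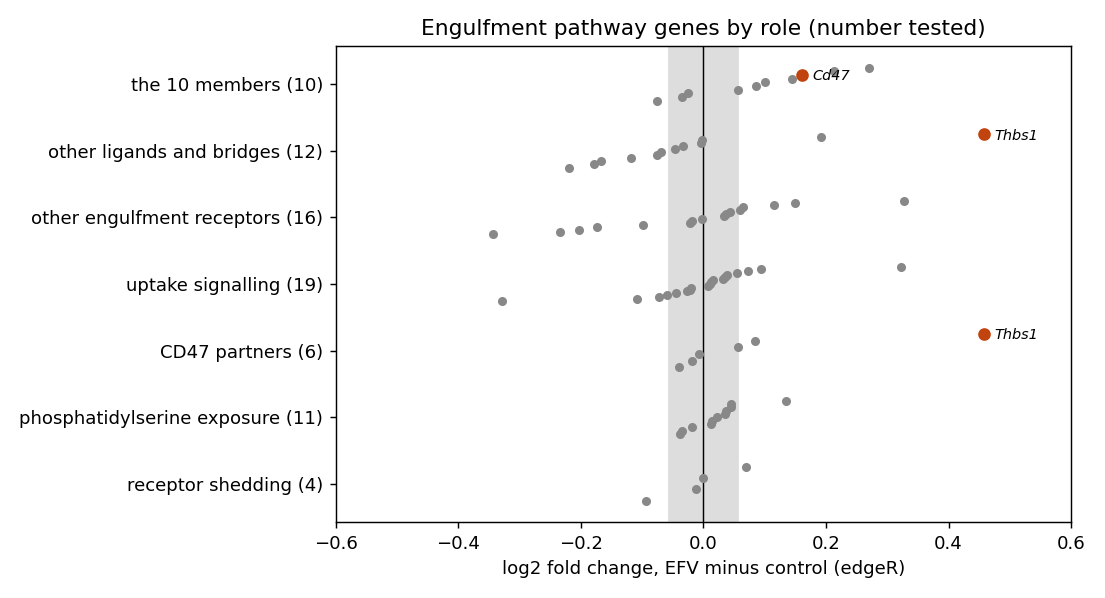
Log2 fold change (EFV-treated over control, edgeR) of the 10 engulfment genes and of the tested genes of 6 further lists by role, 1 point per gene, with genes past the limits of the paper in orange and the band between the quartiles of all genes tested in grey. Cd47 at 0.16 and Thbs1 at 0.46, which is drawn in both lists that hold it, are the genes past the limits.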

How the data were processed

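Retinal RNA was measured in 3 control and 3 EFV-treated libraries. According to the submitters' processing notes the authors used HISAT2 v2.0.4, Bowtie2 v2.2.5 and RSEM v1.2.12 with the mouse genome mm10. The authors deposited expected counts per gene estimated by RSEM, which are not normalized. They also deposited FPKM values, in which the counts are scaled for length and library total. The files also held a gene length, which RSEM weights by transcript. A gene not listed in a library was taken as 0 there. The files held 0 columns of samples other than these. The settings of the read filter, the annotation release and the strandedness are not given in the sources used here.

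Expected counts were rounded to whole numbers. A gene was tested where 3 or more libraries had 10 or more counts, with edgeR 4.0.16 in R 4.3.3 (quasi-likelihood, two-sided), with TMM scaling, group as the only term and BH adjustment over 15537 genes. The limits of the paper, an unadjusted p of 0.05 and a fold change of 1.07, were applied to the edgeR p; the paper bases them on a Poisson distribution, which was an alternative. Shares and ratios were compared with exact permutation tests over the libraries. Fold changes are EFV-treated over control, and intervals are at 95%. At these depths counting error weighs most on the genes with the fewest counts, Cd36 and Mertk. Counts of all pairs of libraries differed by more than sampling noise (chi-square divided by its degrees of freedom, 5.59 to 13.9), and the biological coefficient of variation was 0.0983.

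The 10 genes and all lists were chosen with earlier results of these data known. Named genes were the 10, every gene of another engulfment list past the limits (at most 5 a list), the 2 most abundant genes of each list, at most 2 per marker list (for RPE, all 4 past the limits were named after their values were seen), and the 5 genes most alike Mertk and Cd47. Alternatives were other scalings and filters, genes with an Entrez identifier only, DESeq2 1.42.0, limma 3.58.1 on log2(FPKM + 0.1) and log2(FPKM + 1), the Poisson model, a replicate block, RPE and microglia marker covariates, counts in place of FPKM for shares, and leaving out each library. Promoters came from RefSeq (GRCm38.p6), and all 10 genes were matched by symbol.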

Additional observations from a re-analysis of the deposited data

How the results depend on the processing

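Over the 19 alternatives the log2 fold changes of the 10 genes gave 190 values, of which 178 kept their sign and their side of the limits of the paper, 9 came to pass the limits and 3 changed sign. With a library left out Tyro3 lay between -0.0034 (without EFV replicate 2) and 0.1832, Gas6 between -0.0696 and 0.0355 (without EFV replicate 1) and Itgb5 between -0.1156 and 0.0445 (without control replicate 3). Cd47 passed the limits under all 19 alternatives, with log2 fold changes from 0.11 to 0.19. The number of the 10 genes at an adjusted p of 0.05 was 4 under the Poisson model (Pros1, Mfge8, Itgav and Cd47), which has no term for the spread between pools and called 2042 of all genes tested, and 0 under every other alternative. The number past the limits was 4 under the Poisson model (beside 14.8% of all genes), 3 with the RPE marker covariate (2.95%) and from 1 to 3 with a library left out, where 2.5% to 3.71% of all genes passed (2 without control replicate 1 or 2, and 3 without EFV replicate 3). The number with groups that do not overlap was 1 with scaling by total counts and from 2 to 5 with a library left out, where 15.9% to 19.0% of all genes did not overlap. Of the other engulfment genes, 2 of the tested genes passed the limits with no filter on low counts and 2 with Entrez identifiers only (both beside 2.97% of all genes), 2 in DESeq2 (1.73%) and 7 under the Poisson model (14.8%), and from 0 (without EFV replicate 1) to 3 (without control replicate 3) with a library left out. For these changes between settings the cause was not tested. Scaling by total counts called 288 genes higher and 159 lower over the whole series, where TMM gave 228 and 239. Leaving out a library moved the difference in Mertk share from 0.11 to 1.2 percentage points, that in Gas6 share from -1.12 to -0.48 and the log2 ratio of Itgav to Itgb5 from 0.08 to 0.24.

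The labels number the replicates of both groups alike. Deviations of same-numbered libraries correlated at 0.125, 0.0832 and 0.0992, so the numbers were not taken as pairs, although each library correlated best with its own number, a hint from the data and not from the design. With the replicate block 1 of the 10 genes passed the limits, Cd47 at 0.16, and 2 of the other engulfment genes did (Calr and Myo7a, and not Thbs1); over all genes 514 passed, where 467 did without it. The block changed no other call of the 10 genes.

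Cd36 had the fewest counts of the 10 genes, 63 to 95 per library, and the largest standard error, 0.19. Its 95% interval reached 61.5% above control, and those of Pros1 and Mertk reached 38.3% and 32.6%. These upper ends depend on the fold change as well as on the standard error. The part of depth in them was not tested.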

Other observations

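The genes whose log2 CPM followed Mertk most closely over the 6 libraries, among 12294 genes with an Entrez identifier and a mean FPKM of at least 1, were Bdh2 (Pearson's r = 0.981), Cdk5rap1 (0.978), Polg (0.974), Tfrc (0.973) and Cdip1 (0.973). Those that followed Cd47 were Son (0.986), Dnd1 (0.981), Tmem170 (0.979), Enox2 (0.975) and Foxn3 (0.971). These values describe the libraries, which the genes share, and no test was made of them.

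The transcript length that RSEM weighted for each library differed between groups for Itgav, with 7374 to 7386 bases in control and 7320 to 7365 bases in EFV-treated mice, without overlap (exact permutation test, two-sided p = 0.10, the smallest possible). The files hold 3 transcripts of Itgav, 2 of them named BGI_novel. For Cd47, which also has 3 transcripts with 2 named BGI_novel, the length lay between 5012 and 5148 bases and the groups overlapped (exact permutation test, two-sided p = 0.30). For Mfge8 the weighted length was 2034.72 to 2035.36 bases in control and 2033.72 to 2034.31 bases in EFV-treated mice, again without overlap (exact permutation test, two-sided p = 0.10). Mertk, Gas6 and Pros1 had the same length in every library, and the groups overlapped for Tyro3, Axl, Itgb5 and Cd36. How many of all genes have lengths without overlap was not computed, so no meaning is given to those of Itgav and Mfge8.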
